A study of Homo sapiens with 24 samples.

Results

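Of 43037 genes in the expression table, 8 genes of DNA replication and recombination were examined in 4 glioblastoma cell lines. They were chosen by name: the catalytic subunit of DNA polymerase epsilon (POLE), its subunits POLE2, POLE3 and POLE4, the POLE4-related histone-fold gene CHRAC1, and 3 genes of homologous recombination, BRCA2, its partner PALB2 and its binding protein HSF2BP. Their levels had no part in that choice, but POLE4 and HSF2BP had been picked by the study from these same libraries, so the direction of their differences between the lines is not independent evidence. The lines were U87MG, T98G, U251MG and DBTRG-05MG, established lines from human glioblastoma, a malignant brain tumor. Each line was kept as 2 stable lentiviral transductants that had gone through clonal selection with puromycin, a control that carried the Puro-Blank virus (vec) and a variant that carried the tumor suppressor WWOX behind a CMV promoter (WWOX). Each of these 8 groups held 3 biological replicates, 24 libraries in all, read by CAGE-Seq, which counts the 5′ ends of capped transcripts. Whether the replicates of a group came from separate transductions is not given in the sources used here. A difference between the variants of a line thus cannot be told apart from one between the 2 selected populations. T98G was grown in MEM, DBTRG-05MG in RPMI, and U87MG and U251MG in EMEM, so a difference between lines cannot be told apart from a difference in medium.

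DNA polymerase epsilon is the enzyme that copies the leading strand at the replication fork. POLE carries the polymerase and the proofreading exonuclease, POLE2 ties it to the rest of the holoenzyme and helps to load it at origins, and the small histone-fold subunits POLE3 and POLE4 pair with each other and handle histones behind the fork. POLE3 also pairs with CHRAC1 in the ISWI-type remodeler CHRAC. BRCA2 acts in the repair of broken DNA, PALB2 bridges BRCA2 to BRCA1, and HSF2BP binds BRCA2 and is best known from meiosis in the testis. Replication and recombination genes are transcribed mainly in dividing cells, and E2F factors are known regulators of many of them.

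Since CAGE reads transcript starts, the promoters of the members are what the tags come from. In the RefSeq promoter table (GRCh38.p14, 250 bases before to 50 bases after each start), 6 of 8 members had an entry, all but CHRAC1 and HSF2BP. The 250 bases before the start are shown for POLE4, the member that differed most between the lines, and for POLE, the catalytic subunit. Capitals mark exact matches, on either strand, to an E2F form (TTTCCCGC, TTTCGCGC, TTTGCCGC or TTTGGCGC), a CCAAT box (CCAAT) or a GC box (GGGCGG).
POLE4, chr2:74958393-74958642, plus strand: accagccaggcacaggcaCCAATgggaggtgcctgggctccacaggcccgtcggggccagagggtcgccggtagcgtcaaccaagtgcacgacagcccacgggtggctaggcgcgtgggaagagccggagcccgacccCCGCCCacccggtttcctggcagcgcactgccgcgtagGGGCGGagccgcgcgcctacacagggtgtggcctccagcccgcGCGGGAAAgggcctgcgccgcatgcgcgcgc
POLE, chr12:132687343-132687592, minus strand: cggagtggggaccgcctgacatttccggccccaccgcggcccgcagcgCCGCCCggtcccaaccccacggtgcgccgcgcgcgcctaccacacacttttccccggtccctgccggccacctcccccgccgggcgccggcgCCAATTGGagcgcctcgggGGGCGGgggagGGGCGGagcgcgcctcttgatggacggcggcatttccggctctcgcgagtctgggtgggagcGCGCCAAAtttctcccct

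An E2F form stood on the reverse strand at position -31 of POLE4, -18 of POLE and -5 of POLE2, counted from the base before the start, and in no other member with an entry. It was found in 3 of 6 members and in 3.31% of the 35116 promoters of the table. A GC box was held by 4 of 6 members, against 45% of all promoters, and a CCAAT box by 3 of 6, against 34.6%. None of the 6 held the TATA box (TATAAA), which 11.5% of all promoters did. POLE3 had 3 annotated starts, each with 1 GC box and none of the other motifs. These matches describe letters in a window and say nothing of binding.

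All 8 genes lie at separate sites on hg38. POLE is at chr12:132623753-132687376 and POLE2 at chr14:49643555-49688422, both on the minus strand. POLE3 is at chr9:113407235-113410675 on the minus strand, POLE4 at chr2:74958643-74970128 on the plus strand and CHRAC1 at chr8:140511311-140517154 on the plus strand. HSF2BP is at chr21:43529186-43659488 on the minus strand, BRCA2 at chr13:32315086-32400268 on the plus strand and PALB2 at chr16:23603160-23641321 on the minus strand. For 3 members a tested gene starts on the opposite strand within 1000 bases. PXMP2 lies 211 bases from the start of POLE, RRP1B 72 bases from HSF2BP and DCTN5 145 bases from PALB2. POLE3 overlaps C9orf43, BRCA2 overlaps ZAR1L and HSF2BP overlaps H2BC12L, so that tags there could be split between genes. Whether the counting of the tags used the strand is not given in the sources used here.

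The libraries held 10756072 to 16953689 tags on genes, median 14584829, and levels are given in CPM (tags of a gene per 1000000 tags of the library) as deposited, so that 3 tags correspond to 0.177 to 0.279 CPM. Differences between groups are log2 fold changes (log2FC) from limma on log2 of scaled CPM plus 0.5, fitted to all 8 groups together over the 12327 genes that reached 5 CPM in at least 1 library, with p-values adjusted over those genes by the method of Benjamini and Hochberg. POLE2 and BRCA2 never reached 5 CPM, so 6 of 8 members were tested. Of 6 glioblastoma markers, CD44 and VIM were at or above 13.5 CPM in all libraries, whereas NES was at or under 3 tags in 5 libraries, SOX2 in 9 and OLIG2 in 10. GFAP ran from 0.79 to 3226 CPM, with a median of 4.81 CPM. Of 10 markers of other cells, PTPRC, AIF1, CD3E, PECAM1 and RBFOX3 were at or under 3 tags in all 24. The neuronal marker SNAP25 was at or under 3 tags in only 1 library and reached 32.5 CPM, with a median of 8.38 CPM. The keratins KRT18 and KRT8 reached 1260 and 29.8 CPM, while CDH5 and EPCAM were at or under 3 tags in 18 and 17 libraries. The summed level of the 10 ran from 13.1 CPM in a U87MG vec library to 1301 CPM in a DBTRG-05MG vec library. That sum was 939 to 1301 CPM in DBTRG-05MG vec and 519 to 765 CPM in DBTRG-05MG WWOX, without overlap. The sum of the glioblastoma markers was 1646 to 2106 CPM in T98G vec and 1256 to 1340 CPM in T98G WWOX, also without overlap. For each list the sums of the variants overlapped in the other lines. Among single tested genes, CPM did not overlap for 19.3% in DBTRG-05MG and 16.2% in T98G. The part of such differences in the members' values was not tested. The endothelial marker CDH5 was the only tested gene of both marker lists past the threshold between variants, higher in U251MG WWOX (2.84 ± 0.908 CPM in vec and 8.26 ± 4.47 in WWOX, log2FC 1.28, SE 0.23, adjusted p = 0.013).

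The level of WWOX itself is set beside the labels of the libraries. It cannot decide whether a label is right, since it is not known whether it includes the viral transcript. In U87MG the vec libraries had 40.1, 33.9 and 39.8 CPM and the WWOX libraries 66.0, 61.3 and 61.0 CPM. In DBTRG-05MG vec had 20.4, 22.2 and 21.3 CPM and WWOX 32, 28.2 and 28 CPM. The variants did not overlap in these lines. In T98G vec had 38.6, 57.2 and 34.2 CPM and WWOX 45.1, 61.8 and 60.0 CPM, so that the library labelled T98G vec 2 lay among the WWOX libraries. In U251MG vec had 31.4, 36.8 and 32.1 CPM and WWOX 56.7, 17.4 and 38.0 CPM, so that the library labelled U251MG WWOX 2 lay below every vec library. The log2FC of WWOX was 0.66 in U87MG (SE 0.22, adjusted p = 0.135), 0.39 in DBTRG-05MG, 0.38 in T98G and -0.01 in U251MG, and 0.35 over the 4 lines (SE 0.11, adjusted p = 0.120). None of these passed the threshold in the limma fit, and whether tags from the viral transcript were counted under the gene was not tested. Several log2FC that move by over 1.5 times without T98G vec 2, U251MG WWOX 1 or U251MG WWOX 2 are given with and without them. Group means, marker sums and ratios are given with all libraries only.

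**Figure D1:**
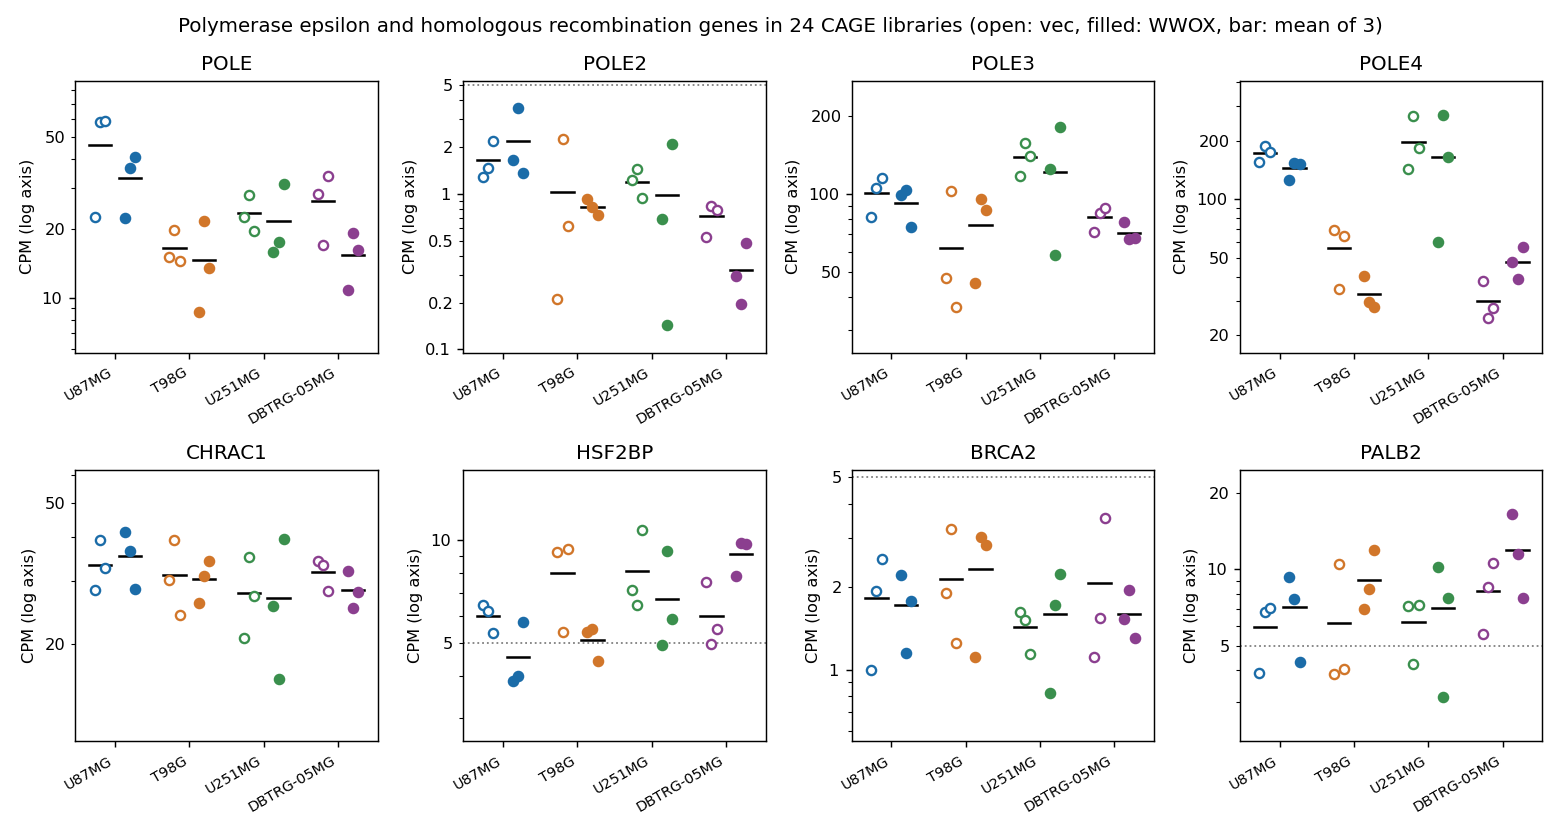
CPM of the 8 members on log axes in the 4 lines, with 1 point for each library (open circles vec, filled circles WWOX), a bar for the mean of 3 and a dotted line at 5 CPM. POLE4 ran from 24.4 to 270 CPM with T98G and DBTRG-05MG at the low end, POLE was highest in U87MG vec, and POLE2 and BRCA2 stayed under 5 CPM throughout.

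POLE4 was the member that differed most between the lines. In the control variants its mean was 197 ± 63.0 CPM in U251MG, 173 ± 16.5 in U87MG, 56.3 ± 19.0 in T98G and 30.01 ± 7.13 in DBTRG-05MG (SD, n = 3). The 3 vec libraries had 155.9, 188.9 and 174.6 CPM in U87MG, 142.9, 266.4 and 182.8 in U251MG, 69.8, 34.6 and 64.4 in T98G, and 38.0, 24.4 and 27.6 in DBTRG-05MG. Each U87MG and U251MG library thus lay above each library of T98G and DBTRG-05MG, and T98G vec 2 lay within the range of DBTRG-05MG.

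The POLE4 level in DBTRG-05MG vec was 6.71-fold below U87MG vec (log2FC -2.75, SE 0.45, adjusted p = 2.63e-05) and 6.6-fold below U251MG vec (log2FC -2.72, SE 0.45, adjusted p = 4.60e-05). T98G vec was 3.20-fold below U87MG vec (log2FC -1.68, adjusted p = 0.0043) and 3.15-fold below U251MG vec (log2FC -1.66, adjusted p = 0.0061). U87MG and U251MG did not differ beyond their spread (log2FC 0.02, 95% interval -0.90 to 0.95). DBTRG-05MG was below T98G by 1.07 on the log2 scale, short of the threshold (adjusted p = 0.060). Without T98G vec 2 that difference was -1.46 and passed (adjusted p = 0.016), and it passed also without U251MG WWOX 1 or 2 (adjusted p = 0.013 and 0.014), while without T98G vec 2 T98G stood closer to U87MG (-1.29, adjusted p = 0.035) and to U251MG (-1.26, adjusted p = 0.043). The 4 calls that set DBTRG-05MG or T98G below U87MG or U251MG held under all 37 other settings. Between the lines many genes differed: 44.1% of all genes tested passed between DBTRG-05MG and U87MG vec, 31.6% between DBTRG-05MG and U251MG, 41.2% between DBTRG-05MG and T98G, 39.8% between T98G and U87MG, 32.4% between T98G and U251MG and 38.6% between U87MG and U251MG.

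Against these shares, 2 of 6 members passed between DBTRG-05MG and U87MG (POLE and POLE4), 2 between DBTRG-05MG and U251MG (POLE3 and POLE4), and 0 between DBTRG-05MG and T98G, where 1 had an unadjusted p under 0.05 and 1, POLE4, passed with edgeR and DESeq2 but none with limma-voom. The count was 3 between T98G and U87MG (POLE, POLE3 and POLE4), 2 between T98G and U251MG (POLE3 and POLE4) and 1 between U87MG and U251MG (POLE). The 6 pairs share their control groups, and apart from POLE, POLE3 and POLE4 no tested member was called in any of them.

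The vec means of POLE3, the histone-fold partner of POLE4, ran in the order of POLE4 except that DBTRG-05MG lay above T98G. The POLE3 mean was 139 ± 20.2 CPM in U251MG, 101 ± 17.4 in U87MG, 81.5 ± 8.58 in DBTRG-05MG and 62.2 ± 35.2 in T98G. DBTRG-05MG vec was above T98G vec by 0.31 on the log2 scale (SE 0.30, adjusted p = 0.428), short of the threshold. A different order of the partners is thus not shown. The T98G vec libraries had 47.5, 102 and 36.7 CPM, and vec 2 was the high library here, as it was the low library for POLE4. T98G vec was below U251MG vec by 1.12 on the log2 scale (SE 0.30, adjusted p = 0.0054) and below U87MG vec by 0.82 (adjusted p = 0.031), and without T98G vec 2 these differences were -1.47 and -1.18. DBTRG-05MG vec was below U251MG vec by 0.81 (adjusted p = 0.041), a call that was lost when any 1 of the 6 libraries of the pair was left out (adjusted p from 0.056 to 0.120). The call between T98G and U87MG was lost without T98G vec 1 or 3 or U87MG vec 2 or 3 (adjusted p from 0.078 to 0.135), with edgeR (adjusted p = 0.055) and with CPM as deposited (adjusted p = 0.085). The call between T98G and U251MG held under all 37 other settings.

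POLE, the catalytic subunit, was highest in U87MG. The U87MG vec libraries had 22.5, 58.0 and 58.5 CPM, so that vec 1 lay far under the others and inside the range of the other lines. U251MG vec had 22.5, 27.9 and 19.4 CPM, DBTRG-05MG vec 28.2, 17.0 and 33.7 CPM, and T98G vec 15, 19.8 and 14.4 CPM. POLE was lower in T98G than in U87MG by 1.37 on the log2 scale (SE 0.37, adjusted p = 0.0053), which held under all 37 other settings. It was lower in DBTRG-05MG than in U87MG by 0.95 (adjusted p = 0.043) and higher in U87MG than in U251MG by 1.04 (adjusted p = 0.032). The first of these was lost without DBTRG-05MG vec 1 or 2, U87MG vec 2 or 3, T98G vec 1 or T98G WWOX 3 (log2FC from -1.04 to -0.71, adjusted p from 0.050 to 0.182), and the second without U87MG vec 2 or 3 or U251MG vec 1 or 3 (adjusted p from 0.067 to 0.133).

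CHRAC1, the other histone-fold partner of POLE3, was the most even member across libraries. It ran from 15.9 to 41.3 CPM over the 24 libraries, a 2.59-fold range, and its vec means lay between 27.8 ± 7.22 CPM in U251MG and 33.4 ± 5.49 in U87MG. No pair of lines differed past the threshold, the nearest being U87MG above U251MG by 0.45 on the log2 scale (95% interval -0.03 to 0.92, adjusted p = 0.128). In the same libraries POLE4 ranged 11.1-fold and POLE3 4.95-fold.

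The recombination members were low. HSF2BP had vec means of 8.10 ± 2.29 CPM in U251MG, 8.01 ± 2.27 in T98G, 5.99 ± 0.589 in U87MG and 5.98 ± 1.36 in DBTRG-05MG, and its libraries held 58 to 160 tags each. PALB2 had vec means of 8.22 ± 2.53 CPM in DBTRG-05MG, 6.20 ± 1.71 in U251MG, 6.15 ± 3.79 in T98G and 5.91 ± 1.74 in U87MG, with 44 to 279 tags a library. Neither differed between any pair of vec groups, the intervals reaching from -1.27 to 1.05 for HSF2BP and from -0.82 to 1.09 for PALB2. HSF2BP was below T98G in DBTRG-05MG by 0.89 once T98G vec 2 was left out (adjusted p = 0.044), against 0.57 with it (adjusted p = 0.184).

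BRCA2 and POLE2 were close to what this depth can resolve. BRCA2 had 12 to 54 tags and 0.823 to 3.56 CPM, with vec means between 1.42 ± 0.253 CPM in U251MG and 2.13 ± 1.03 in T98G. POLE2 had 2 to 52 tags and 0.143 to 3.53 CPM. Its vec means were 1.64 ± 0.472 CPM in U87MG, 1.2 ± 0.248 in U251MG, 1.03 ± 1.08 in T98G and 0.717 ± 0.169 in DBTRG-05MG, and the 3 T98G vec libraries had 3, 36 and 8 tags. When the filter on low values was dropped, neither gene passed in any of the 12 comparisons, and the smallest adjusted p was 0.107, for POLE2 lower in DBTRG-05MG than in U87MG vec (log2FC -0.95, SE 0.42).

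The question of the study was how the lines respond to WWOX, and in particular whether DBTRG-05MG responds otherwise. No tested member passed the threshold between WWOX and vec in any line. The count was 0 of 6 in each line, against 3.2% of all genes in U87MG, 1.14% for T98G, 0.316% for U251MG and 1.02% for DBTRG-05MG. At an unadjusted p under 0.05 the count was 1 within DBTRG-05MG and 0 within each other line, and edgeR, DESeq2 and limma-voom on the recovered tags also called 0 in each line. Over the mean of the 4 lines 0 of 6 passed (1.8% of all genes), with 1 at an unadjusted p under 0.05, and for DBTRG-05MG minus the mean of the other lines 0 of 6 passed (0.982% of all genes), with 2 at an unadjusted p under 0.05.

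**Figure D2:**
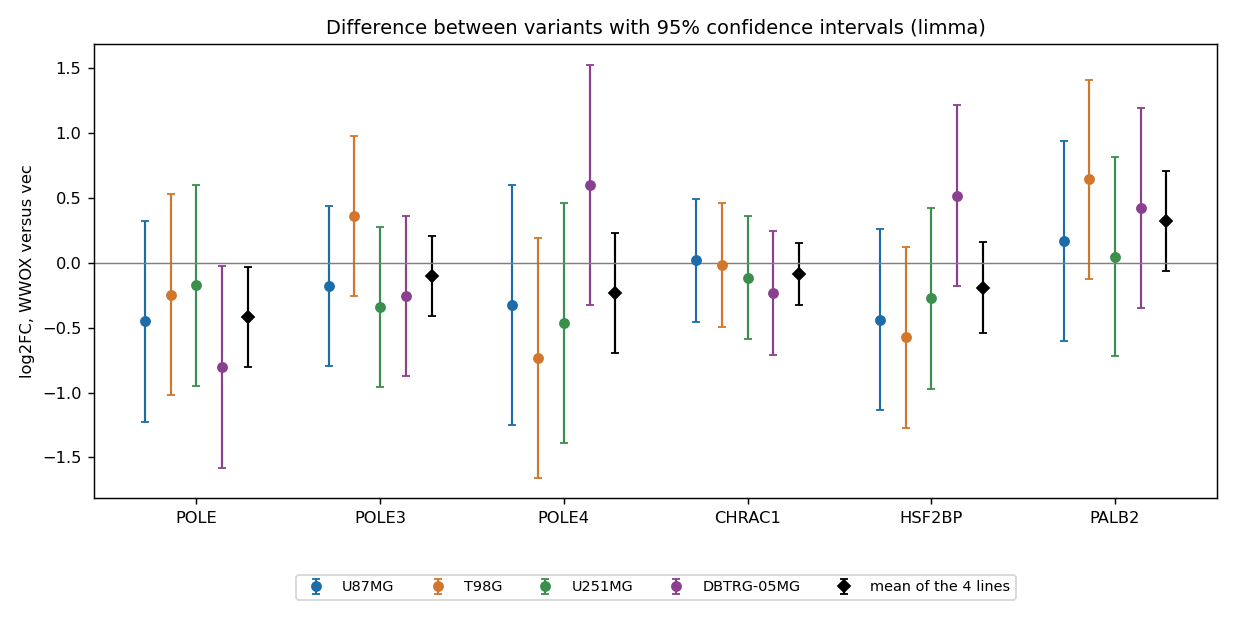
Log2FC of WWOX versus vec (vertical axis) for the 6 tested members, by line (colored circles) and as the mean of the 4 lines (black diamonds), with 95% confidence intervals from limma. POLE4 and HSF2BP lay above 0 in DBTRG-05MG and below 0 in the other lines, POLE lay below 0 and PALB2 above 0 in all 4, and the intervals crossed 0 except for POLE in DBTRG-05MG and over the 4 lines.

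POLE4 in DBTRG-05MG had 38.0, 24.4 and 27.6 CPM in vec and 47.4, 38.7 and 57.1 CPM in WWOX. In CPM the WWOX libraries all lay above the vec libraries. In U87MG vec had 155.9, 188.9 and 174.6 CPM and WWOX 126, 153 and 152 CPM, all below vec. In T98G vec had 69.8, 34.6 and 64.4 CPM and WWOX 40.3, 29.8 and 28 CPM, which overlapped through vec 2. In U251MG vec had 142.9, 266.4 and 182.8 CPM and WWOX 60.2, 270 and 166 CPM, so that a WWOX library was the lowest and another the highest of the 6.

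The log2FC of POLE4 was 0.60 in DBTRG-05MG (SE 0.45, 95% interval -0.32 to 1.53, adjusted p = 0.889), -0.33 in U87MG (adjusted p = 0.961), -0.47 in U251MG (adjusted p = 0.756) and -0.73 in T98G (adjusted p = 0.570). DBTRG-05MG minus the mean of the other lines was 1.11 (SE 0.51, 95% interval 0.04 to 2.18, unadjusted p = 0.042, adjusted p = 0.645). In U251MG the value turned to 0.22 without WWOX 1 and went to -1.18 without WWOX 2 (adjusted p = 0.070), and in T98G it was -1.12 without vec 2 (adjusted p = 0.201). The difference between DBTRG-05MG and the others stayed between 0.88 and 1.34 when single libraries were left out and passed in none of those 24 fits.

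HSF2BP gave log2FC of the same signs, none past the threshold. In DBTRG-05MG it had 7.53, 4.96 and 5.47 CPM in vec and 7.84, 9.78 and 9.73 CPM in WWOX, without overlap. In U87MG vec had 6.46, 6.18 and 5.33 CPM and WWOX 3.85, 4.0 and 5.76 CPM. In T98G vec had 9.21, 5.39 and 9.42 CPM and WWOX 5.39, 5.49 and 4.42 CPM, and in U251MG vec had 7.13, 6.45 and 10.7 CPM and WWOX 4.94, 9.30 and 5.88 CPM. The variants overlapped in each of these 3 lines. The log2FC was 0.52 in DBTRG-05MG (SE 0.34, adjusted p = 0.849), -0.27 in U251MG, -0.44 in U87MG and -0.58 in T98G, and DBTRG-05MG minus the others was 0.95 (SE 0.39, 95% interval 0.14 to 1.75, unadjusted p = 0.024, adjusted p = 0.504). The U251MG value was -0.01 without WWOX 1 and -0.74 without WWOX 2 (adjusted p = 0.163), and the T98G value was -0.89 without vec 2 (adjusted p = 0.167). Without these libraries in turn DBTRG-05MG minus the others lay between 0.86 and 1.09.

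Counted over the tested members, the CPM of the variants did not overlap for 1 of 6 in U87MG (POLE4), where this held for 16.7% of all genes, for 2 in DBTRG-05MG (POLE4 and HSF2BP), against 19.3% of all genes, and for 0 each in U251MG (9.45%) and T98G (16.2%). After scaling between libraries the counts were again 1 in U87MG (17.5% of all genes), 2 in DBTRG-05MG (19.8%) and 0 in U251MG (10.4%) and T98G (16.2%), but the 2 in DBTRG-05MG were then POLE and POLE3, both lower in WWOX, and POLE4 and HSF2BP overlapped.

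The mean of POLE was lower in the WWOX variant of each line. Its mean was 26.3 ± 8.52 CPM in DBTRG-05MG vec and 15.3 ± 4.21 in DBTRG-05MG WWOX, 46.3 ± 20.6 against 33.3 ± 9.78 for U87MG, 23.3 ± 4.31 against 21.5 ± 8.47 for U251MG and 16.4 ± 2.97 against 14.6 ± 6.59 for T98G. The DBTRG-05MG libraries had 28.2, 17.0 and 33.7 CPM in vec and 10.8, 19.1 and 16.1 CPM in WWOX, which overlapped at vec 2. The log2FC was -0.80 in DBTRG-05MG (SE 0.37, unadjusted p = 0.043, adjusted p = 0.624), -0.17 in U251MG, -0.25 in T98G and -0.45 in U87MG, and the mean of the lines was -0.42 (SE 0.19, 95% interval -0.81 to -0.03, unadjusted p = 0.035, adjusted p = 0.285). Without T98G WWOX 1 the T98G value was 0.05, and without U251MG WWOX 1 the U251MG value was 0.09.

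PALB2 had a log2FC above 0 in each line, 0.64 in T98G, 0.42 in DBTRG-05MG, 0.17 in U87MG and 0.05 in U251MG, and 0.32 over the lines (SE 0.18, 95% interval -0.06 to 0.70, adjusted p = 0.422). The T98G vec libraries had 3.87, 10.5 and 4.05 CPM and WWOX 6.97, 8.39 and 12 CPM, and without vec 2 the T98G value was 1.01 (adjusted p = 0.151). The U251MG value of PALB2 was -0.20 without WWOX 1 and 0.29 without WWOX 2. POLE3 had log2FC of 0.36 in T98G, -0.18 in U87MG, -0.26 in DBTRG-05MG and -0.34 in U251MG. The T98G value of POLE3 was 0.71 without vec 2 and 0.67 without WWOX 1, and the U251MG value was -0.11 without WWOX 2. CHRAC1 had log2FC between -0.23 in DBTRG-05MG and 0.02 in U87MG. The interval of CHRAC1 over the mean of the lines was -0.33 to 0.15, the narrowest of the tested members.

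For the members that were not tested, POLE2 went from 0.717 ± 0.169 to 0.323 ± 0.145 CPM in DBTRG-05MG. Its tags went from 33 over the 3 vec libraries (8, 13 and 12) to 15 over the 3 WWOX libraries (5, 3 and 7). These libraries did not overlap in CPM, which held for 19.3% of the tested genes in this line. In U251MG WWOX POLE2 had 10, 2 and 31 tags, a spread wider than the difference from vec. BRCA2 went from 2.07 ± 1.304 to 1.59 ± 0.325 CPM in DBTRG-05MG and from 1.82 ± 0.772 to 1.71 ± 0.528 in U87MG, with overlap in both. With no filter on low values the log2FC of POLE2 was -0.57 in DBTRG-05MG (SE 0.42) and that of BRCA2 -0.24 (SE 0.39).

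Ratios between members of a complex within a library do not depend on the scaling of that library, but they can carry other differences between libraries. Within groups POLE4 rose and POLE3 fell along the GC index described below (slopes of 0.89 and -0.46 log2 per unit). The part of that index in the ratios was not tested. POLE4 over POLE3 had a mean log2 ratio of 0.79 ± 0.17 in U87MG vec and 0.64 ± 0.35 in U87MG WWOX (SD, n = 3). It was 0.47 ± 0.25 and 0.34 ± 1.69 in U251MG, -0.07 ± 1.31 and -1.17 ± 0.86 in T98G, and -1.46 ± 0.48 and -0.59 ± 0.30 in DBTRG-05MG, where vec and WWOX were apart (-1.79 to -0.92 against -0.80 to -0.24). In T98G the libraries ranged from -1.57, in vec 2, to 0.81 within vec alone. POLE4 over CHRAC1 ran from -0.11 ± 0.31 in DBTRG-05MG vec to 2.81 ± 0.09 in U251MG vec, and CHRAC1 over POLE3 from -2.34 ± 0.17 in U251MG vec to -0.88 ± 0.44 in T98G vec. POLE2 over POLE lay between -5.63 ± 0.86 in DBTRG-05MG WWOX and -4.02 ± 0.81 in U87MG WWOX, on few POLE2 tags. HSF2BP over BRCA2 went from 1.69 ± 1.07 to 2.53 ± 0.32 in DBTRG-05MG and from 1.97 ± 1.13 to 1.25 ± 0.89 in T98G, and PALB2 over BRCA2 from 2.12 ± 0.48 to 2.85 ± 0.50 in DBTRG-05MG. POLE4 over POLE3 was not the only ratio with the DBTRG-05MG variants apart. POLE4 over CHRAC1 reached at most 0.15 in vec and at least 0.56 in WWOX. For PALB2 over BRCA2 these limits were 2.46 and 2.56. CHRAC1 over POLE3, POLE2 over POLE and HSF2BP over BRCA2 overlapped there. Among single genes, 19.3% did not overlap in CPM in DBTRG-05MG, and the share among ratios of other genes was not tested. The ratios given here are compared between groups only, and their size says nothing of protein stoichiometry.

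The genes most like each member over the 24 libraries, by Pearson's r of the log2 scaled level, were MCM3 for POLE (r = 0.93), PRPF4 for POLE3 (0.89), GINS4 for CHRAC1 (0.82) and MAP7D3 for PALB2 (0.88). For POLE4 they were EMC6 (0.93), GEMIN7 (0.92) and ARRB2 (0.92), and for HSF2BP they were RUSC1 (0.80), STK25 (0.80) and ANKRD13D (0.79). The points share lines, libraries and depth, so these are descriptions. With the group means removed the r of POLE with MCM3 was 0.94, that of POLE3 with PRPF4 0.76, of POLE4 with EMC6 0.78, of CHRAC1 with GINS4 0.66, of PALB2 with MAP7D3 0.85 and of HSF2BP with RUSC1 0.84. MCM3, a subunit of the replicative helicase, had 61.1 to 190 CPM in U87MG vec and 13 to 50.2 CPM in T98G WWOX. PRPF4, a splicing factor gene, starts 135033 bases from POLE3 on chromosome 9.

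**Figure D3:**
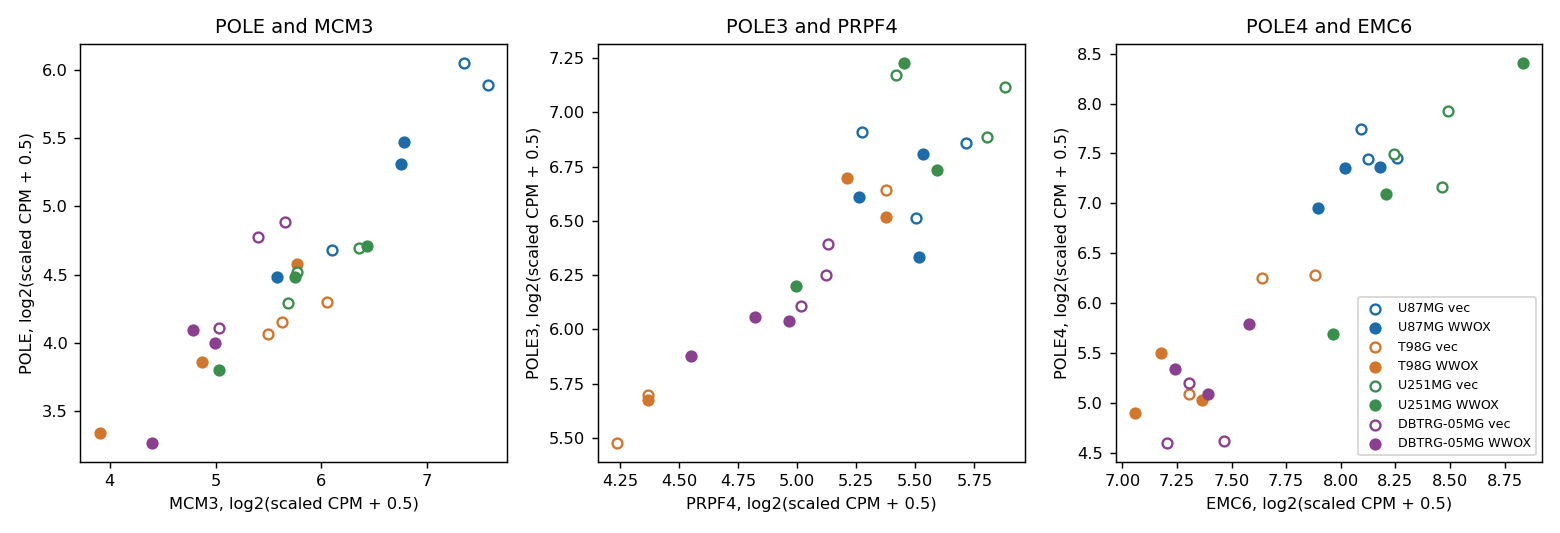
Log2 of scaled CPM plus 0.5 of POLE, POLE3 and POLE4 (vertical axes) against the gene most like each (horizontal axes), with 1 point for each of 24 libraries, open for vec and filled for WWOX. POLE followed MCM3 within lines as well as between them (r = 0.93), whereas POLE4 and EMC6 fell into a low cloud of T98G and DBTRG-05MG and a high cloud of U87MG and U251MG, with U251MG WWOX 1 at the POLE4 level of the low cloud.

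Within groups, the deviations of single libraries ran together for some members and apart for others. With group means removed, POLE4 and HSF2BP had r = 0.75 (Spearman's rho 0.59), POLE3 and CHRAC1 0.69 (rho 0.73) and POLE3 and PALB2 0.60 (rho 0.53), whereas POLE4 and PALB2 had -0.73 (rho -0.70), HSF2BP and PALB2 -0.68 (rho -0.63), and POLE3 and HSF2BP -0.67 (rho -0.62). POLE had no r above 0.33 in size with any other tested member. The partners POLE3 and POLE4 had r = -0.49 (rho -0.31) within groups and 0.44 over all 24 libraries.

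The same deviations ran along a property of the libraries. A GC index was set for each library as the median log2 deviation of the 25% of genes with the most GC-rich transcripts minus that of the 25% with the most AT-rich ones. With group means removed it had r = 0.86 with POLE4 (rho 0.72), 0.88 with HSF2BP (rho 0.85), -0.72 with POLE3 (rho -0.63), -0.71 with PALB2 (rho -0.68), -0.37 with CHRAC1 (rho -0.38) and 0.16 with POLE (rho 0.09). Without the 2 libraries farthest out, U251MG WWOX 1 and WWOX 2, the r of POLE4 was 0.73, of HSF2BP 0.81, of POLE3 -0.76 and of PALB2 -0.66. Values at least as large in size were found in 11.4% of all genes tested for POLE4, 7.91% for HSF2BP, 29.7% for POLE3, 30.9% for PALB2, 67.8% for CHRAC1 and 86.5% for POLE. WWOX itself had r = -0.79, a size reached by 21.3% of genes. The transcripts of POLE4 and HSF2BP hold 47.3% and 49.9% GC, near the median of 48.6% over the genes tested, those of POLE3 and PALB2 46.4% and 42.8%, and that of POLE 56.4%.

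**Figure D4:**
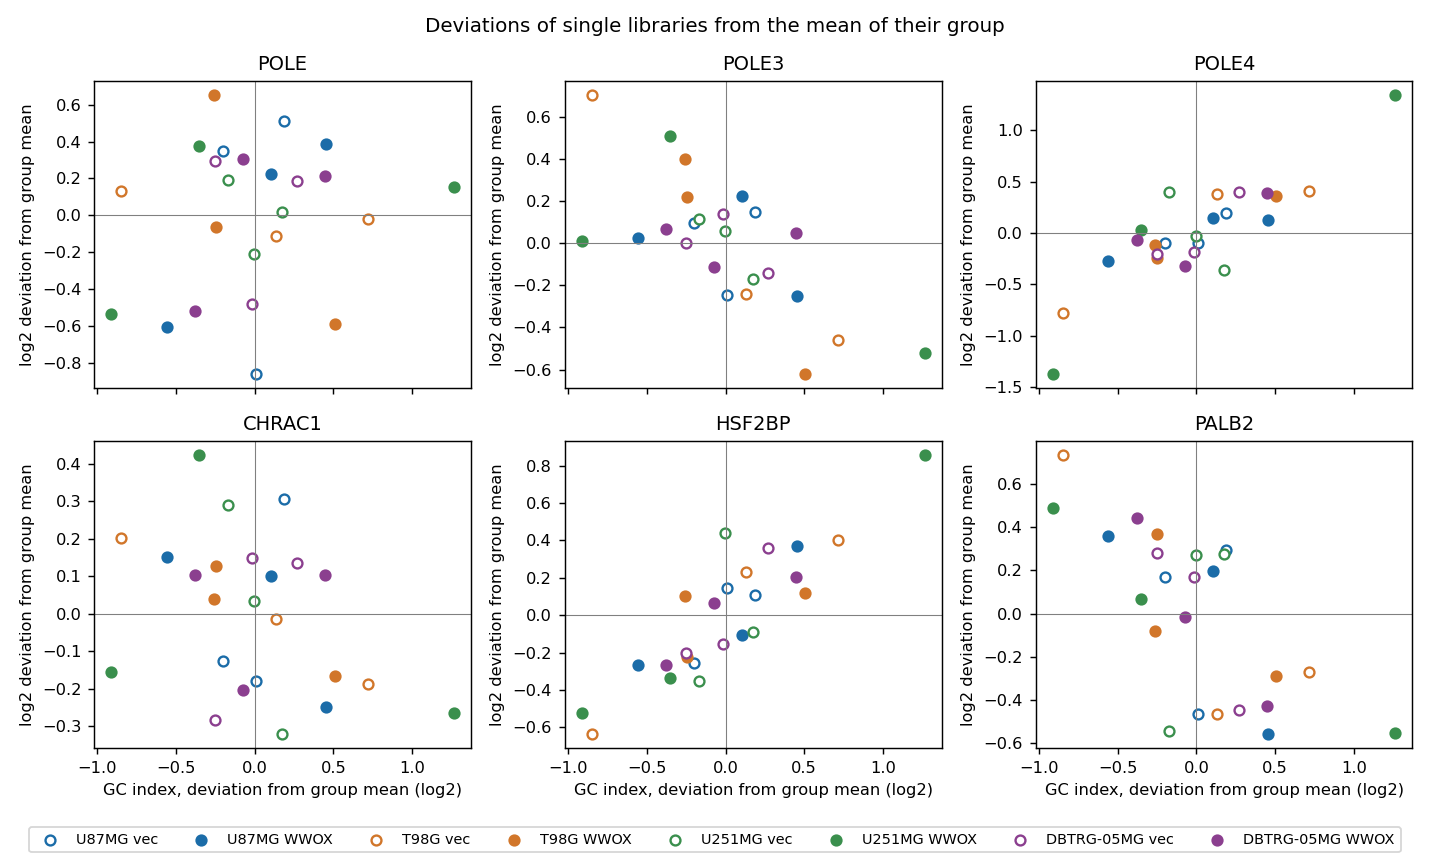
Log2 deviation of each tested member from its group mean (vertical axes) against the deviation of the GC index of the library (horizontal axes), with 1 point for each of 24 libraries. POLE4 (r = 0.86) and HSF2BP (r = 0.88) sloped upward along the index, POLE3 (r = -0.72) and PALB2 (r = -0.71) downward, and POLE (r = 0.16) had little slope.

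The difference of the index, WWOX minus vec, was -0.31 in DBTRG-05MG, -0.27 in T98G, -0.17 in U87MG and -0.002 in U251MG, and in DBTRG-05MG the libraries overlapped (-0.51 to 0.01 in vec and -0.94 to -0.11 in WWOX). The part of the index in the values of POLE4 and HSF2BP was not tested apart from the fit that follows. With the index as a covariate, a fit added after the data had been seen, HSF2BP passed for DBTRG-05MG minus the others (log2FC 1.05, SE 0.23, adjusted p = 0.016) and so did POLE4 (1.25, SE 0.29, adjusted p = 0.025), 2 of 6 members against 1.73% of all genes. The calls held in 21 of 24 fits for HSF2BP and in 20 of 24 for POLE4 when each library was left out in turn, with log2FC from 0.98 to 1.14 and from 1.10 to 1.38. They were lost without DBTRG-05MG vec 2 or 3 for both genes, without DBTRG-05MG WWOX 2 for HSF2BP, and without DBTRG-05MG WWOX 1 or 3 for POLE4 (adjusted p from 0.052 to 0.093). In that fit the difference within DBTRG-05MG was 0.87 for POLE4 (adjusted p = 0.092) and 0.71 for HSF2BP (adjusted p = 0.078), and neither gene passed in any line. When the values were instead corrected for GC content and transcript length within each library, neither passed for DBTRG-05MG minus the others (adjusted p = 0.252 for HSF2BP and 0.433 for POLE4). The index was drawn from the same libraries as the members, and both genes had been chosen by the study for this contrast, so the 2 calls are not independent evidence.

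The genes next to the members gave no call. PXMP2, a peroxisomal membrane gene that starts 211 bases from POLE and points away from it, was at 16.1 to 40.9 CPM and had a log2FC of -0.76 in DBTRG-05MG (adjusted p = 0.296) and -0.41 over the lines (adjusted p = 0.121), beside -0.80 and -0.42 for POLE. With group means removed the r of the pair was 0.26. RRP1B, a nucleolar gene 72 bases from HSF2BP, had a log2FC of 0.02 in DBTRG-05MG, beside 0.52 for HSF2BP, and r = -0.64. In U87MG RRP1B had 0.14 beside -0.44 for HSF2BP, in T98G -0.53 beside -0.58, and in U251MG -0.17 beside -0.27. DCTN5, a dynactin subunit 145 bases from PALB2, had log2FC of 0.33 in DBTRG-05MG and r = -0.11. The medians of all other tested genes on a member's own chromosome, less the median of all genes, lay between -0.20 (chromosomes 9 and 12 in DBTRG-05MG) and 0.16 (chromosome 2 in DBTRG-05MG). On chromosome 2, home of POLE4, they lay between 0.00 for U87MG and 0.16 for DBTRG-05MG.

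Around the members stand the genes of the replication fork. Of 40 listed partners of polymerase epsilon 37 were tested, and 0 passed between WWOX and vec in any line, with 3 at an unadjusted p under 0.05 in U251MG, 1 each in U87MG and DBTRG-05MG and 0 in T98G. With each library left out in turn, calls over all genes in U251MG reached 558, without WWOX 2, against 39 with all libraries. Of the 37, 0 to 1 then passed in U251MG and 0 in each other line. The log2FC was below 0 for 36 of 37 in U87MG, beside 50.7% of all genes, with a median of -0.39. It was below 0 for 34 in DBTRG-05MG (49.9% of all genes, median -0.42), for 33 in U251MG (49.4%, median -0.48) and for 23 in T98G (54.5%, median -0.08). The medians of all genes lay between -0.05 and 0.00. The genes of a list share their libraries, so these counts are not independent observations.

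Over the mean of the lines 0 of 37 passed, with 9 at an unadjusted p under 0.05, and 34 of 37 were below 0 (median -0.38). With each library left out in turn, 0 to 3 of the 37 passed. Calls over all genes then reached 856, without U251MG WWOX 2, against 222 with all libraries. The 6 subunits of the MCM helicase, which unwinds DNA ahead of polymerase epsilon, lay between -0.90 and -0.59, and the 4 tested genes of CDC45 and GINS, which complete the helicase, between -0.60 and -0.34. The 4 subunits of polymerase delta, the lagging-strand enzyme, lay between -0.47 and -0.22, the 5 subunits of the clamp loader RFC between -0.45 and 0.15, and the 3 of CHTF18, CHTF8 and DSCC1, the alternative clamp loader that binds polymerase epsilon, between -0.43 and 0.11. POLE, at -0.42, lay above every MCM subunit and within the ranges of the other 4 groups. The smallest adjusted p of the list was that of RPA1, the large subunit of the single-strand binding protein RPA (log2FC -0.41, SE 0.12, adjusted p = 0.083), which passed with DESeq2 (adjusted p = 0.028), with the GC index as covariate (0.016) and with a correction for GC content and transcript length, without (0.022) and with the replicate block (0.023). That blocked correction also called MCM2, a subunit of the helicase, over the lines (log2FC -0.81, adjusted p = 0.031) and POLD2, a subunit of polymerase delta, over the lines (log2FC -0.28, adjusted p = 0.0495) and in DBTRG-05MG (log2FC -0.64, adjusted p = 0.045). These 3 genes were named here after their values were seen.

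**Figure D5:**
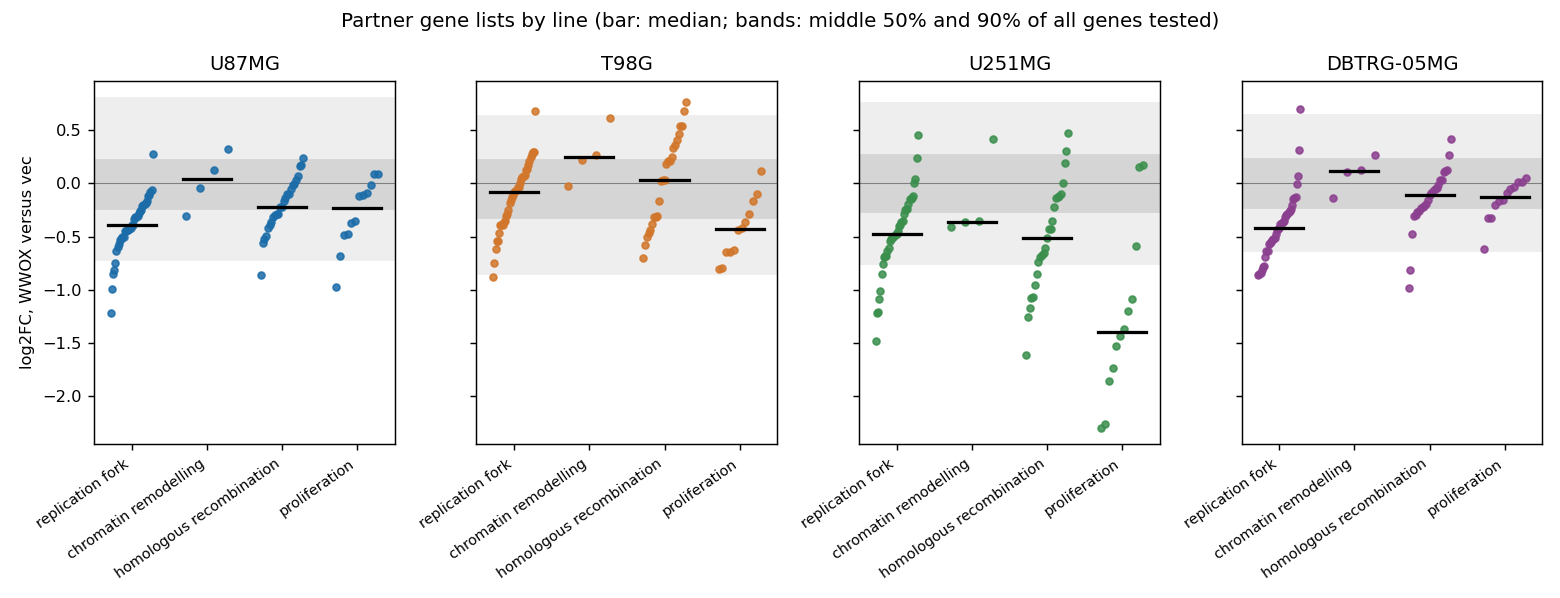
Log2FC of WWOX versus vec (vertical axes) for the tested genes of 4 lists in each line, with 1 point for each gene, a bar for the list's median and gray bands for the middle 50% and 90% of all 12327 genes. The replication fork genes lay below 0 for 36 of 37 in U87MG and 34 of 37 in DBTRG-05MG but for 23 of 37 in T98G, and the proliferation genes reached -2.30 in U251MG.

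Of 30 listed recombination partners 25 were tested and 0 passed in any line, with 3 at an unadjusted p under 0.05 in U251MG, 1 in T98G and 0 in the other lines. The medians were -0.51 in U251MG, -0.22 in U87MG, -0.11 in DBTRG-05MG and 0.04 in T98G. BRCA1, to which PALB2 links BRCA2, and its partner BARD1 lay between -0.26 and -0.07 over the lines, and the double-strand break sensor genes MRE11, RAD50 and NBN between -0.31 and -0.16. NBN passed over the lines with the GC index as covariate (log2FC -0.46, adjusted p = 0.038). Of 6 listed recombination partners known from meiosis, DMC1, MEIOB and SPATA22 did not reach 5 CPM in any library. BRME1, PSMC3IP and MND1 did so in at least 1 library, as did HSF2BP.

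Of 5 remodeling partners of CHRAC1 and POLE3, 4 were tested and 0 passed, with 0 at an unadjusted p under 0.05 in each line and medians between -0.36 in U251MG and 0.25 in T98G. SMARCA5, the ISWI ATPase of CHRAC, had low levels, with means between 0.801 ± 0.373 CPM in T98G vec and 3.72 ± 3.97 in DBTRG-05MG WWOX. The 12 proliferation genes, all tested, gave 0 calls, with 3 at an unadjusted p under 0.05 in U251MG, 1 in T98G and 0 in the other lines, and medians of -1.40 in U251MG, -0.43 in T98G, -0.23 in U87MG and -0.12 in DBTRG-05MG. In U251MG, where that median was lowest, POLE had -0.17 and POLE4 -0.47. Of the 12 proliferation genes, 0 to 1 passed in U251MG, and 0 in each other line, when single libraries were left out. edgeR, DESeq2 and limma-voom called 0 genes of these 4 lists within a line, except MORF4L1, a partner of PALB2 that was lower in U251MG WWOX with DESeq2 (log2FC -0.59, adjusted p = 0.031) and also with the GC index as covariate (adjusted p = 0.036). The blocked GC and length correction called the proliferation gene MKI67 in U251MG (log2FC -2.43, adjusted p = 0.049). In bulk libraries fewer dividing cells and less RNA per cell cannot be told apart, and the part of cell division in the values of POLE was not tested.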

How the data were processed

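CAGE-Seq tags of 24 libraries were analysed. Per the labels and the methods of the study, the authors aligned reads to hg38 with STAR, counted tags in R through SAMtools and deposited CPM per gene, a table that the 24 single-library files equal. The annotation release is not given in the sources used here. All CPM values gave whole tags (100% within 0.001), and no column was left unused.

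CPM were scaled by trimmed mean of M-values (trims 30% and 5%) and tested with limma 3.58.1 (trend) on log2(CPM + 0.5), so that changes of low genes are understated. The 12327 genes that reached 5 CPM in 1 library or more entered 1 model of 8 groups (16 residual degrees of freedom), two-sided, with Benjamini-Hochberg adjustment and a threshold of 0.05. edgeR 4.0.16, DESeq2 1.42.0 and limma-voom on the recovered tags, R 4.3.3, were alternatives, as were 2 other pseudocounts, filters, scalings, a model per line, a replicate block and leaving out each library. The scripts were tested on simulated data. Precision covers these samples and counting error only. Replicate numbers came from the titles.

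Gene positions came from GENCODE 44 and promoters from RefSeq, both hg38. The members and the gene lists were chosen with earlier results of these data known. Named were all members, WWOX, opposite-strand genes starting within 1000 bases, listed genes past the threshold, and the genes most like each member. Complexes described within a list, and genes said to be so, were named afterwards. The value of 1 gene of the recombination list is not reported here.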

Additional observations from a re-analysis of the deposited data

Results flagged for a closer look

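The POLE4 libraries of 2 lines lay in opposite orders: in CPM, all 3 WWOX libraries were above all 3 vec libraries in DBTRG-05MG, where 19.3% of all genes did not overlap, and below all 3 in U87MG, where 16.7% did not. Neither log2FC passed with limma (adjusted p = 0.889 and 0.961), and they differed by 0.93. This pair of lines was not tested on its own, and the study had chosen POLE4 for such a contrast. For DBTRG-05MG minus the mean of the other 3 lines the difference was 1.11 with limma (adjusted p = 0.645). After scaling the DBTRG-05MG libraries overlapped, whereas the U87MG libraries did not.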

How the results depend on the processing

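None of the 6 tested members passed between WWOX and vec, within a line, over the mean of the lines or for DBTRG-05MG minus the others, under any of 37 or 38 alternatives with limma, edgeR, limma-voom or DESeq2, except HSF2BP and POLE4 with the GC index as covariate (2 members, DBTRG-05MG minus the others). Among the comparisons of vec between lines, 1 member passed in place of 0 between DBTRG-05MG and T98G with edgeR, DESeq2, the GC and length correction, and that correction with the replicate block. With no filter and with CPM as deposited, 1 in place of 2 passed between DBTRG-05MG and U87MG and between DBTRG-05MG and U251MG, and 0 in place of 1 between U87MG and U251MG. Between T98G and U87MG the call of POLE3 was lost with edgeR and with CPM as deposited. Leaving out single libraries gave 0 to 2 members between DBTRG-05MG and T98G, 1 to 2 between DBTRG-05MG and U87MG, 1 to 2 between DBTRG-05MG and U251MG, 0 to 1 between U87MG and U251MG, 2 to 3 between T98G and U87MG, and 2 in every fit between T98G and U251MG. The cause of these changes was not tested.

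Some values turned sign, among them POLE4 in U251MG and POLE in T98G, at -0.47 and -0.25 with all libraries. CHRAC1 in U87MG was -0.0484 with the GC and length correction, with or without the replicate block, and -0.0106 with the GC index as covariate, and in T98G it was 0.00947 with median of ratios scaling and 0.00389 with DESeq2. WWOX in U251MG was 0.00659 with CPM as deposited, 0.0666 with edgeR, 0.000405 with limma-voom and 0.0768 with DESeq2, and WWOX for DBTRG-05MG minus the others was -0.00909 with the GC index as covariate. With single libraries left out, log2FC ran from -0.0903 to 0.15 for CHRAC1 in U87MG, from -0.0958 to 0.0818 in T98G and from -0.33 to 0.0291 in U251MG, from -0.57 to 0.0464 for POLE in T98G and -0.36 to 0.0924 in U251MG, from -1.18 to 0.22 for POLE4 in U251MG, from -0.0811 to 0.45 for PALB2 in U87MG, -0.23 to 0.29 in U251MG and -0.0884 to 0.35 for DBTRG-05MG minus the others, and from -0.30 to 0.23 for WWOX in U251MG and -0.0467 to 0.14 for DBTRG-05MG minus the others.

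WWOX passed in U87MG with DESeq2 (0.67, adjusted p = 0.047), with the GC index as covariate (0.60, adjusted p = 0.016) and without U251MG WWOX 1 (0.66, adjusted p = 0.046), and over the lines with DESeq2 (0.39, adjusted p = 0.022), with that covariate (0.29, adjusted p = 0.034) and without U251MG WWOX 2 (0.41, adjusted p = 0.015). The GC settings were chosen after seeing the data. Same-numbered libraries had correlated deviations in some pairs and opposite ones in others (r from -0.55 to 0.51), so the numbers were not taken to pair the samples. The replicate block, which follows the numbers, changed no call of a member between variants (0 members in each). Across numbers r ran from -0.63 (T98G vec 2 and WWOX 1) to 0.70 (U251MG vec 2 and WWOX 3). In DBTRG-05MG it was 0.64 for vec 1 and WWOX 3, 0.61 for vec 2 and WWOX 1, and 0.63 for vec 3 and WWOX 2. Whether libraries of different numbers shared a batch was not tested. The counts of tags limit POLE2 and BRCA2.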
